A study of Sus scrofa with 2 samples.

Results

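miR-23, miR-27 and miR-24 are made from 2 groups of neighbouring hairpins, one that gives miR-23a, miR-27a and miR-24 and one that gives miR-23b, miR-27b and miR-24. The 5 mature 3p forms (the form from the 3' arm of a hairpin) of these clusters are described here, out of 131 conserved miRNA entries with reads. The set was selected on a readout, since miR-27b was known to be several-fold higher in the Dicer KD library, and the question was whether miRNAs of one transcript moved with it. Reads of 18 to 26 nt were counted that held nt 2 to 18 of a mature form without mismatch and began within 2 nt of its 5' end. They comprised 59 distinct sequences of 1166705 in all, with 6053 reads in the Dicer KD library and 1355 in the control library.

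Small RNA was sequenced from pig (Sus scrofa) oocytes at metaphase II, the arrested stage reached by in vitro maturation, here for 42 h. In the Dicer KD group Dicer had been knocked down with siRNA in germinal vesicle oocytes before maturation, and the control group is labelled only as control. There was 1 library per group, with 11982925 reads for Dicer KD and 11836160 for control, so every comparison is between these libraries, not between conditions, and no test was possible. Intervals are exact 95% intervals that cover counting error only, since reads copied by PCR and not tagged by molecule are not independent. The labels say neither how many oocytes were pooled nor what the control oocytes received. The Dicer transcript was not analysed here, so how far Dicer was reduced is not known. Fewer cells of a type and less RNA per cell cannot be told apart in pooled oocytes.

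For most miRNAs Dicer cuts a precursor hairpin into a duplex of about the same length, and one strand of it is loaded into an Argonaute protein. The loaded strand recognises messenger RNAs mainly through its seed, nt 2 to 8. miRNAs cut from one primary transcript can still reach different mature levels, because cleavage, loading and stability act on each hairpin and strand. The miR-23/27/24 clusters are known chiefly from endothelial, muscle, immune and other somatic cells. In the pig RefSeq gene table (Sscrofa11.1) MIR23A, MIR27A and MIR24-1 follow each other with 0 other genes between them. MIR24-2, MIR27B and MIR23B do so too, within the span of C10H9orf3, the pig counterpart of a human aminopeptidase gene.

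The most abundant read of each member is shown with its seed in capitals, since the seeds group the members and the last bases tell the paralogs apart. All sequences were read from the deposited tables, in DNA letters.
miR-27b: tTCACAGTggctaagttctg
miR-27a: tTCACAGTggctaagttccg
miR-23b: aTCACATTgccagggattacc
miR-23a: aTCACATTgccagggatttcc
miR-24: tGGCTCAGttcagcaggaac

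miR-27a and miR-27b share their seed and all of nt 1 to 18, and differ by T19C (miR-27b base first, counted from the 5' end). miR-23a and miR-23b likewise differ by A19T, with the miR-23b base first. Reads were therefore given to a member only if they also held its base at nt 19. Of the reads of the miR-27 pair, 17 in the Dicer KD library and 1 in the control library ended at nt 18, and 5 and 0 had another base at nt 19. Of the miR-23 pair 3 and 0 reads ended at nt 18. Both genes of miR-24 give the same 3p form, so these reads cannot be placed in either cluster. Just outside the rule lay 1 Dicer KD read of the miR-27 pair, of 41 nt, and 1 control read of the miR-23 pair, of 30 nt.

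miR-27b, a miRNA studied in vessels, fat and muscle, held nearly all reads of these clusters in both libraries. It had 5921 reads in the Dicer KD library and 1319 in the control library, which is 494 RPM (reads scaled to a common library size; interval 482 to 507) and 111 RPM (106 to 118). The ratio of Dicer KD to control was 4.43 (4.18 to 4.71), and it is given as a description, because it chose the set. miR-27b took 97.8% (97.4 to 98.2%) of the reads of the 5 members and their unresolved forms in the Dicer KD library and 97.3% (96.3 to 98.1%) in the control library. Among all entries it was number 10 by reads in the Dicer KD library and number 17 in the control library.

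**Figure D1:**
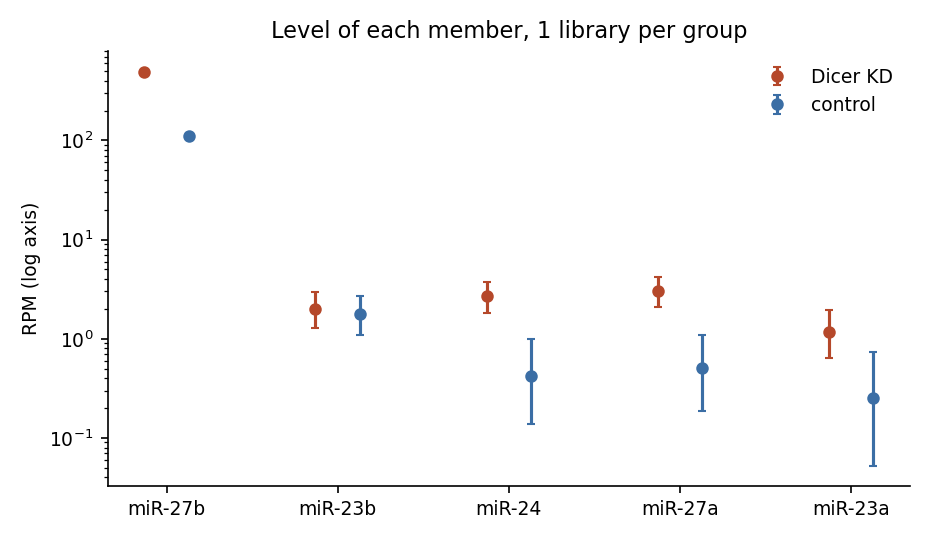
RPM on a log axis for the 5 members in the Dicer KD and control libraries, 1 library each, with exact Poisson intervals as bars. miR-27b lies at 494 and 111 RPM and the other members between 0.253 and 3.004 RPM.

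The other members were near the limit of detection. miR-23b, the neighbour of miR-27b, had 24 reads in the Dicer KD library and 21 in the control library, or 2.003 and 1.77 RPM. These levels overlapped within counting error, with a ratio of 1.13 (0.602 to 2.13). miR-24, which is made by both clusters, had 32 and 5 reads, or 2.67 and 0.422 RPM, a ratio of 6.32 (2.44 to 20.8). miR-27a, of the other cluster, had 36 and 6 reads, or 3.004 and 0.507 RPM, a ratio of 5.93 (2.47 to 17.2). miR-23a had 14 and 3 reads, or 1.17 and 0.253 RPM, a ratio of 4.61 (1.29 to 25.02). The intervals of miR-24, miR-27a and miR-23a thus lay above 1, whereas that of miR-23b included 1. That alone does not show that their ratios differed from the ratio of miR-23b. Together the 4 members other than miR-27b had 106 and 35 reads, a ratio of 2.99 (2.02 to 4.52).

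**Figure D2:**
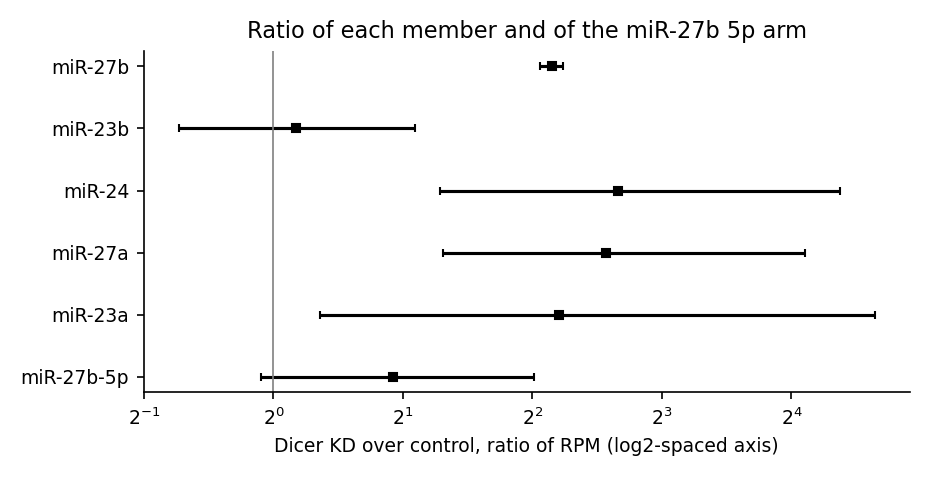
Ratio of RPM, Dicer KD over control, on a log2-spaced axis for the 5 members and for the 5p arm of miR-27b, with exact conditional intervals as bars. The intervals of miR-23b (0.602 to 2.13) and miR-27b-5p (0.936 to 4.04) include 1 and those of the other 4 do not.

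With a minimum of 100 reads over the 2 libraries and a ratio of at least 2, 1 member, miR-27b, was called higher and the other 4 had too few reads. The background was 20.8%, with 15 of 72 entries higher by this rule, and 1.39%, 1 entry, lower. At a minimum of 20 reads, 3 of the 4 members that passed were called, miR-27b, miR-24 and miR-27a, with a background of 25.3%. miR-24 and miR-27a passed this minimum through their 32 and 36 Dicer KD reads, against 5 and 6 in control. As miR-27b was chosen for its ratio, nothing is read from this share either. The median log2 ratio of the 5 members was 2.15, which is the value of miR-27b itself, on which the set was selected. Over the 99 entries with at least 20 reads the median was 0.28, and nothing is read from the difference.

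**Figure D3:**
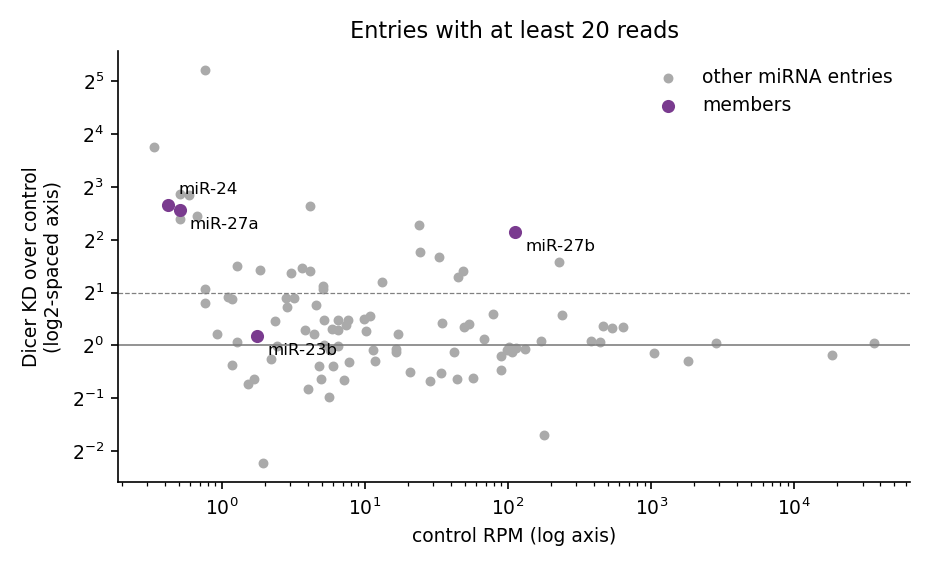
Ratio of Dicer KD over control against control RPM, both on log axes, for the 99 miRNA entries with at least 20 reads, with 4 members marked (miR-23a, with 17 reads, is below the minimum). miR-27b lies at a ratio of 4.43 and miR-23b at 1.13; the dashed line marks a ratio of 2.

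The comparison the set was made for is that of miR-27b with its neighbour miR-23b, and over all read lengths their ratios differed by more than counting error. There were 247 miR-27b reads per miR-23b read in the Dicer KD library and 62.8 in the control library. The ratio of miR-27b was 3.93 times that of miR-23b (2.07 to 7.39), and the choice of library scaling does not enter this value. Against miR-24 the same quotient was 0.701 (0.213 to 1.82) and against miR-27a, its paralog in the other cluster, 0.748 (0.257 to 1.80). Both intervals include 1, so with these few reads no difference could be detected. As miR-27b was chosen for its ratio, these quotients are descriptions. miR-23b had 1.71 reads per miR-23a read in the Dicer KD library and 7 in the control library, a quotient of 0.245 (0.0405 to 1.07). This interval includes 1. Over 9 alternatives the quotient was 0.119 to 0.245, and in 5 of the 8 that gave an interval the interval lay below 1. Whether the miR-23 paralogs differed therefore depended on the reads counted, with 3 control reads of miR-23a behind the value.

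The ratio of miR-27b depended on the 3' end of its reads. Nearly all reads began at nt 1, 5916 of 5921 in the Dicer KD library and 1319 of 1319 in the control library, so the seed was that shown above. Reads of 20 nt made up 86.8% (86.0 to 87.7%) of miR-27b in the Dicer KD library and 79.5% (77.2 to 81.6%) in the control library, and were the main form in both. The 20-nt reads had a ratio of 4.85 (4.53 to 5.18), with 5142 and 1048 reads. Those of 21 nt had a ratio of 3.10 (2.63 to 3.67), with 597 and 190 reads. Reads of 22 nt stood at 2.22 (1.45 to 3.48), with 72 and 32 reads. The ratio was thus lower at each added base past nt 20. Reads of 23 to 26 nt, with 25 and 22 reads, were at a ratio of 1.12 (0.607 to 2.09), and the ratio of the 20-nt reads was 4.32 times theirs (2.31 to 8.01). The 19-nt reads were outside this order, at 3.11 (1.996 to 4.99) on 85 and 27 reads.

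The forms that carry this pattern are the 5 most abundant of miR-27b, shown because they differ at the 3' end alone.
form of 20 nt: tTCACAGTggctaagttctg
form of 21 nt: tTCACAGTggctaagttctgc
form of 19 nt: tTCACAGTggctaagttct
form of 22 nt: tTCACAGTggctaagttctgct
second form of 21 nt: tTCACAGTggctaagttctgt

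The 20-nt form had 5132 reads in the Dicer KD library and 1047 in the control library, and the 21-nt form 530 and 168 reads. The second 21-nt form, which carries C21T relative to the first, had 55 and 20 reads, a ratio of 2.72 (1.60 to 4.78). In reads of at least 21 nt, base C at nt 21 was found in 620 Dicer KD and 218 control reads, C21T in 56 and 20, and C21A in 10 and 6. Which bases past nt 20 are encoded in the hairpin was not determined, because no hairpin sequence was used here. C21T and C21A therefore name the base read at nt 21 and not its origin. The second 21-nt form had a ratio whose interval overlapped that of the 21-nt form, 3.12 (2.61 to 3.73).

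Short forms of other miRNAs were also higher in the Dicer KD library. Over all entries other than the 5 members, miR-10b and miR-182, reads of 19 to 20 nt had a ratio of 1.69 (1.63 to 1.75) and those of 21 to 26 nt 1.08 (1.07 to 1.09). The quotient of the short by the long ratio was 1.56 (1.51 to 1.62) for them and 1.71 (1.45 to 2.01) for miR-27b, so these values overlapped. The share of reads of 19 to 20 nt was 88.3% in the Dicer KD library and 81.5% in the control library for miR-27b. Of 34 other entries with at least 100 reads and at least 20 of each size, 0 had a larger short share than miR-27b in either library, and their medians were 5.84% and 3.67%. On the log2 scale the short minus long difference was 0.77 for miR-27b. Over these 34 entries the difference had a median of 0.56, with 23 above 0 and 17 above miR-27b. Counted on reads of 21 to 26 nt alone, miR-27b still had a ratio of 2.81 (2.42 to 3.26).

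**Figure D4:**
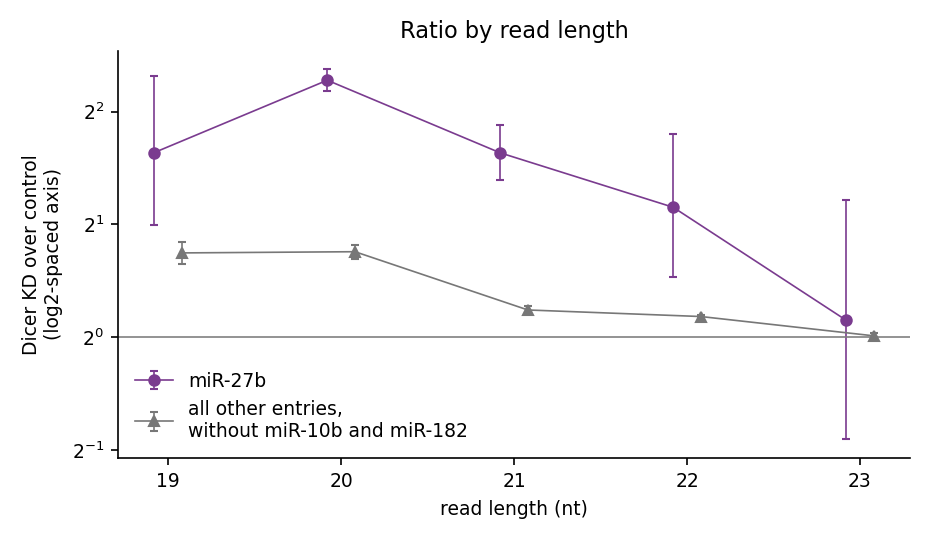
Ratio of Dicer KD over control by read length from 19 to 23 nt, on a log2-spaced axis, for miR-27b and for all other miRNA entries without miR-10b and miR-182, with exact conditional intervals as bars. miR-27b falls from 4.85 at 20 nt to 1.11 at 23 nt, and the other entries from 1.69 at 20 nt to 1.01 at 23 nt.

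The same split by length bears on the other members. miR-24 rested on its 20-nt form, with 30 reads in the Dicer KD library and 3 in the control library, while its reads of 21 to 26 nt were 2 and 2. miR-23b was mostly longer, with 4 reads in the Dicer KD library and 1 in the control library at 20 nt, and 20 and 20 at 21 to 26 nt. At 21 nt, a length both neighbours have, miR-27b was at 3.10 and miR-23b at 0.706 (0.280 to 1.71) on 10 and 14 reads. Their quotient at that length was 4.40 (1.78 to 11.2), and over 21 to 26 nt it was 2.84 (1.42 to 5.67). At 20 nt, the main length of miR-27b, miR-23b had a ratio of 3.95 (0.391 to 195) and the quotient was 1.23 (0.0249 to 12.4). Over 23 to 26 nt the quotient was 0.852 (0.209 to 3.32). The pair was therefore not shown to differ at 20 nt or at 23 to 26 nt, where few reads of one or both were left. miR-27a was at 4.44 (1.46 to 18.1) for 20 nt, on 18 and 4 reads, and at 5.93 (1.32 to 54.5) for 21 nt, on 12 and 2 reads. miR-23a had no read of 20 nt, and its 21-nt form had 12 and 2 reads.

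Because miR-27a differs from the far more abundant miR-27b by 1 base, its reads were set against single changes of the 20-nt miR-27b form. T19C, which gives miR-27a, had 18 Dicer KD and 4 control reads. The same kind of change at the other 6 T positions had at most 4 reads over both libraries, with a median of 1.5. The most frequent change at another position was A4G, with 6 and 11 reads. The T19C reads were thus more frequent than T-to-C changes at the other T positions. Whether errors are as frequent at nt 19, near the end of the form, as elsewhere is not known, and T19G had 4 and 0 reads. At 20 nt the ratio of miR-27b was 1.09 times that of miR-27a (0.268 to 3.32). What share of the miR-27a reads came from miR-27b was not tested.

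The 5p arms, which the rule did not use, gave few or no reads. They were searched with short sequences typed from background knowledge, so a pig form that differs from these could be missed. miR-27b-5p was found as 1 sequence, shown as the partner strand of miR-27b, with its nt 2 to 8 in capitals.
miR-27b-5p: aGAGCTTAgctgattggtgaac

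It had 25 reads in the Dicer KD library and 13 in the control library, or 2.09 and 1.10 RPM, a ratio of 1.90 (0.936 to 4.04). The interval includes 1. The 5p share of miR-27b reads was 0.420% (0.272 to 0.620%) in the Dicer KD library and 0.976% (0.521 to 1.66%) in the control library. The ratio of the 3p form was 2.33 times that of the 5p form (1.09 to 4.75), but the 3p form is the one chosen for its ratio and its reads were mostly of 20 nt. At 22 nt, the length of the 5p form, the 3p ratio was 2.22 (1.45 to 3.48), which overlaps that of the 5p form, so a difference between the strands was not shown. The 5p arms of miR-23a, miR-23b and miR-27a, and the one named miR-24-1-5p in human, had 0 reads in both libraries, and the floor of 3 reads set for a count of 0 is worth 0.2504 RPM in Dicer KD and 0.253 RPM in control. The form named miR-24-2-5p in human had 2 and 0 reads in a separate count of the 5p arms. By the rule used for all entries it had 0 in both libraries. These are too few to place the miR-24 reads in a cluster.

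The seeds of miR-27, TCACAGT, and of miR-128, CACAGTG, overlap when shifted by 1 base. miR-128, a miRNA best known from the brain, is shown for that reason.
miR-128: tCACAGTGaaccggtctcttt

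miR-128 stood at 456 RPM in the Dicer KD library and 436 RPM in the control library, a ratio of 1.04 (1.01 to 1.09). The level of miR-27b was thus above that of miR-128 in the Dicer KD library and below it in the control library. Only 1 miR-27b read, in the Dicer KD library, began at nt 2, the start that would give miR-27b the seed of miR-128.

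The 5 other entries of at least 100 reads whose log2 ratio was nearest to the 2.15 of miR-27b, over these 2 libraries, were miR-143, miR-10a, miR-140-3p, miR-378 and miR-423-5p. miR-143, a miRNA typical of smooth muscle, had a log2 ratio of 2.27, with 116 RPM in Dicer KD and 23.99 RPM in control. The others had log2 ratios of 1.77 for miR-10a, 1.67 for miR-140-3p, 2.63 for miR-378 and 1.58 for miR-423-5p. miR-143 and miR-10a had nearly equal ratios in short and long reads, with short minus long differences of -0.09 and 0.03 on the log2 scale, and miR-423-5p had a difference of -0.35, opposite in sign to that of miR-27b. miR-140-3p and miR-378 had too few reads of one size for this split.

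Lists of markers of other cell types were set beside these members, and the ratios within them were mixed. Of entries with at least 20 reads, 1 of 2 stromal and vascular, 1 of 4 granulosa and 0 of 1 blood miRNAs were at least 2-fold higher. The background at this minimum was 25.3%. The list of 7 stromal and vascular miRNAs summed to 126 RPM in Dicer KD and 28.8 RPM in control, a ratio of 4.38 (3.89 to 4.94), with 6 of 7 detected and miR-214 at 0. miR-143, named above because its ratio was near that of miR-27b, held 1393 of the 1513 Dicer KD reads and 284 of the 341 control reads. The sum is therefore not separate from that choice. miR-199a-3p had a ratio of 1.70 (1.20 to 2.43). miR-126-5p had 18 Dicer KD reads and 1 control read, a ratio of 17.8 (2.81 to 741). The rest had few reads, with miR-145 at 4 and 0, miR-126-3p at 3 and 2 and miR-199a-5p at 2 and 0. The 5 granulosa miRNAs summed to 608 and 472 RPM, a ratio of 1.29 (1.24 to 1.33), and all 5 were detected. miR-21-5p held 7172 of the 7282 Dicer KD reads and 5473 of the 5589 control reads of this list. Of the others, miR-202-5p had 32 and 6 reads, a ratio of 5.27 (2.17 to 15.4), and miR-383 was lower, at 0.567 (0.340 to 0.930), on 27 and 47 reads. miR-132 was at 0.762 (0.503 to 1.15) on 44 and 57 reads, and miR-212 had 7 and 6 reads. Of 6 blood miRNAs 2 were detected, at 47.0 and 35.3 RPM together, with miR-142, miR-144 and miR-223 at 0. Nearly all of these reads were miR-486, with 559 and 411, and miR-451 had 4 and 7. Of 3 muscle miRNAs 1 was detected, on 2 and 0 reads. The part of other cells in the ratio of miR-27b was not tested.

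Members of other miRNA clusters also differed from each other in these libraries. Over 11 other clusters with at least 2 entries of at least 20 reads, the spread of log2 ratios within a cluster had a median of 0.84 and ran from 0.06, for let-7f and miR-98, to 2.10. In the miR-23b cluster the spread was 2.37, from miR-24 at 2.55 to miR-23b at 0.17, and 0 of the 11 were wider. Without miR-24, which cannot be placed in a cluster, the spread between miR-27b and miR-23b was 1.98 and 2 of the 11 were wider. As miR-27b was chosen for its ratio and miR-24 had 32 Dicer KD and 5 control reads, nothing is read from these ranks. The widest of the 11 was the miR-17/92a cluster, where miR-20a had 5 Dicer KD and 23 control reads. In the miR-100 cluster let-7a was at 0.09 and miR-100 at -1.70, on 664 and 2126 reads. miR-93 and miR-25, also cut from one transcript, were at -0.12 and 1.41, and miR-25 had 1528 Dicer KD and 569 control reads. Several entries, such as let-7a, miR-125b and miR-24, are made from more than 1 cluster.

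**Figure D5:**
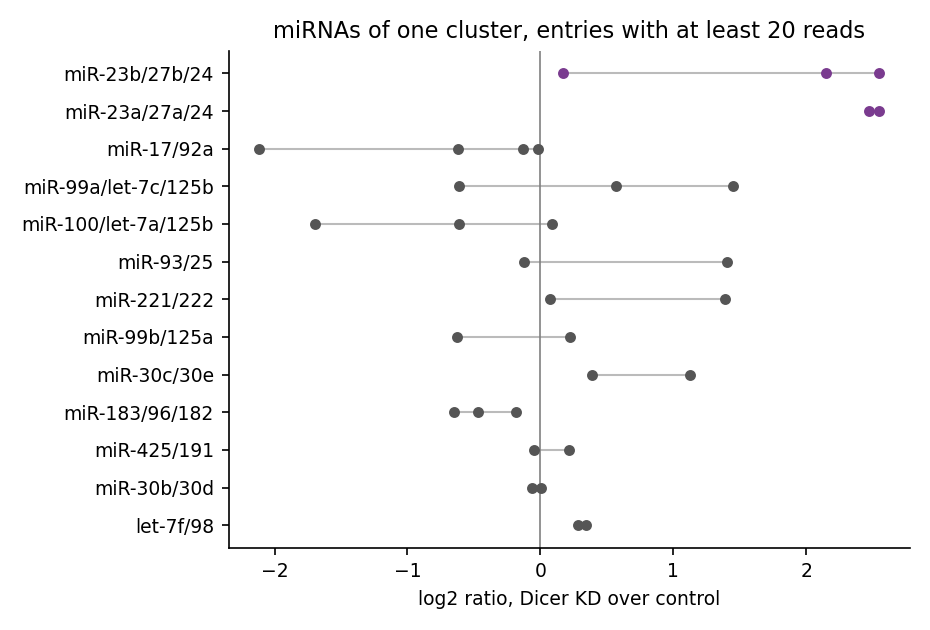
Log2 ratio of Dicer KD over control for miRNA entries with at least 20 reads, 1 row per cluster, with the miR-23 clusters above and the others ordered by spread. Points are entries and lines join the lowest and the highest, from 0.17 to 2.55 in the miR-23b cluster.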

How the data were processed

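The authors deposited 1 table per library with the length, the raw read count and the letters of each distinct sequence, from 18 to 44 nt, and the counts are not normalized. The submitters' processing notes name Bowtie2 without its role; a version, a build and trimming settings are not given in the sources used here. Members and lists were chosen with earlier results of these data known.

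No miRNA reference was used. Each of 160 entries was located by its nt 2 to 8 and nt 12 to 19, typed from background knowledge, and the most abundant read of 20 to 24 nt that held both supplied nt 2 to 19. For example, miR-27b was found by TCACAGT and TAAGTTCT, miR-27a by TCACAGT and TAAGTTCC, miR-23b by TCACATT and AGGGATTA, miR-23a by TCACATT and AGGGATTT, and miR-24 by GGCTCAG and AGCAGGAA. Reads were matched on the given strand. 9 entries join miRNAs that share both motifs, and pig-specific miRNAs are not counted. Located were 131 entries, with 6.55% of Dicer KD reads and 6.52% of control reads.

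RPM is relative to all reads. Ratios have exact conditional, shares exact binomial (Clopper-Pearson) and levels exact Poisson intervals, and quotients of ratios the exact interval of the odds ratio. Log2 ratios had 0.5 reads added, and the floor was 3 reads. Named were the members, their 5p arms, miR-128, the 5 entries of nearest log2 ratio and a list of clusters; single clusters and markers were picked after their values were seen. The calculation was checked on simulated counts of 4000 sequences, drawn from those with at least 100 reads, with Poisson error alone. Of the intervals, 95.2% held the true ratio. Members other than miR-27b, all with fewer reads, were not covered by this check. Scaling, match, length, mismatch and read minimums were varied. Python 3.11.15, numpy 2.4.6, pandas 2.3.3, scipy 1.17.1 and matplotlib 3.10.9 were used.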

Additional observations from a re-analysis of the deposited data

Results flagged for a closer look

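Reads of the miR-27 pair that ended at nt 18, before the base that tells the paralogs apart, had 17 Dicer KD reads and 1 control read, a ratio of 16.8 (2.63 to 702), above the level in the control library. Reads of miR-27b with 1 mismatch between nt 2 and 18, which the comparisons did not use, had 55 and 19 reads, a ratio of 2.86 (1.67 to 5.10), also above the control level. Both intervals include 4.43, the ratio of miR-27b on which the set was selected. These reads are near forms of miR-27b, so nothing separate from that ratio is read from them.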

How the results depend on the processing

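The ratios of miR-23b, miR-27a and miR-23a stayed within their intervals under each alternative that gave a value, at 0.706 to 1.32, 4.44 to 6.59 and 4.18 to 6.91. The ratio of miR-27b stayed above 1 under all 15 alternatives and moved to 4.02 with scaling to reads that match no miRNA and do not start with T, to 4.84 with its most abundant form alone, to 2.83 with a match over nt 2 to 21, to 2.81 with reads of 21 to 26 nt and to 1.12 with reads of 23 to 26 nt. That scaling shifted all log2 ratios by -0.14. The ratio of miR-24 reversed to 0.494 with the match over nt 2 to 21 and to 0.988 with reads of 21 to 26 nt, where 2 Dicer KD reads or fewer were left, and miR-27b against miR-24 moved to 5.73 and 2.84. miR-27b against miR-23b lay between 2.84 and 6.86 in 9 alternatives and reversed to 0.852 with reads of 23 to 26 nt, on 25 and 22 reads of miR-27b. The members at least 2-fold higher were 3 with a minimum of 20 reads and 0 with reads of 23 to 26 nt, against 1 in the report. The settings of 21 to 26 nt and 23 to 26 nt were chosen after seeing the data, and that of 23 to 26 nt gave no value for miR-24, miR-27a, miR-23a and miR-27b-5p, which had 0 reads in at least 1 library. The cause of these moves was not tested beyond the counts given. No paired analysis was possible because there was 1 library per group. With 1 library each, a ratio cannot be set against the spread between replicates, and members with under 50 reads allow only differences of several-fold to be seen.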
